A study of Mus musculus with 13 samples.

Results

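The 34 genes described here make cholesterol and fatty acids or control that synthesis. They were chosen by name: 35 genes were named, 34 of them are among the 20325 genes of the expression tables, and Hmgcs1 is not analysed here. The sterol branch holds 21 genes, of which 16 encode enzymes and 5 sense or carry sterols (Srebf2, Scap, Insig1, Insig2 and Stard4). The fatty acid branch holds the other 13 (Srebf1, Acly, Acss2, Me1, Acaca, Acacb, Fasn, Scd1, Scd2, Elovl5, Elovl6, Fads1 and Fads2).

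Cells build cholesterol from acetyl-CoA by way of mevalonate, squalene and lanosterol, and build fatty acids from the same precursor by carboxylation, elongation and desaturation. Srebf2 encodes a SREBP transcription factor that favours sterol genes, and Srebf1 encodes its relatives that favour fatty acid genes. Scap escorts the precursors of these factors to the Golgi for cleavage, while Insig proteins hold Scap in the endoplasmic reticulum when sterols are plentiful, and Insig1 is itself a well known SREBP target.

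The samples were 13 mouse RNA-seq libraries. Pre-iPSCs, cells derived from mouse embryonic fibroblasts and stalled on the way to induced pluripotency, were Kdm3b knockout (KO) or wild type (WT), and each genotype was sampled at day 0 of AA+2i and after 2 and 10 days in it, as 2 libraries lettered A and B per group. AA+2i is ascorbic acid (50 µg/mL) together with inhibitors of GSK3 and of MEK. Kdm3b encodes a histone demethylase that acts on H3K9. A single library came from V6.5 embryonic stem cells (ESC). All groups were grown in a medium with 15% serum and leukaemia inhibitory factor. A split on day 4 is given for the day 10 cultures alone. The day 0 libraries are titled DMSO although their treatment label reads AA+2i, and the ESC library carries that treatment label too with a time of 0 hr. The labels do not say how the knockout was made, whether the cells of a genotype are 1 clone, or whether A and B were separate cultures, so p-values measure the spread between these libraries, which may be technical.

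Library totals ran between 14891294 and 26430050 expected counts. Kdm3b itself ran between 17.7 and 65.5 CPM (counts scaled to a library total of 1000000) in the 6 KO libraries, against 146 to 261 CPM in the 6 WT libraries, and the ranges did not overlap. At days 0 and 2 the letters stood apart across the transcriptome. The count-weighted mean transcript length was 3716 to 3921 bases in the 4 B libraries and 2986 to 3135 bases in the 4 A libraries, against 3325 to 3437 bases at day 10 and 2891 bases in ESC. Same-lettered libraries deviated from their group means together at days 0 and 2 (correlations over genes of 0.741 to 0.812) and did not with day 10 (-0.0610 to 0.0492). Counts of called genes are therefore also given from a fit in which the letter is a block at days 0 and 2. Member counts from alternative fits that have no share of all genes beside them show only how the count depends on the processing. The 6 pluripotency markers summed to 2789 to 3349 CPM in KO and 4658 to 5315 CPM in WT at day 10, a sum in which Pou5f1 ran against the others. Pou5f1 had 2510 and 3185 CPM in KO and 1265 and 1387 CPM in WT, whereas Nanog had 32.8 and 31.0 CPM in KO and 298 and 331 CPM in WT, and Esrrb 24.8 and 8.48 CPM in KO and 408 and 434 CPM in WT. The 6 adipocyte markers summed to 0.0606 to 0.125 CPM in KO and 1.88 to 1.98 CPM in WT, with Plin1 and Lep at 0 in all 4 libraries. The 8 fibroblast markers summed to 4.12 to 6.56 CPM in KO and 74.6 to 102 CPM in WT at day 10, against 248 CPM in ESC, with Lum at 0 in the day 10 libraries. Most of the WT sum at day 10 was Col1a1, with 49.5 and 77.4 CPM. Col3a1 overlapped between the genotypes there, with 3.75 and 2.06 CPM in KO and 3.47 and 3.88 CPM in WT. The 4 macrophage markers summed to 8.31 to 11.2 CPM in KO and 25.7 to 27.4 CPM in WT at day 10. Ptprc and Emr1 were at 0 in all 4 libraries. Most of the macrophage sum was Cd68, with 7.37 and 10.5 CPM in KO and 21.3 and 18.2 CPM in WT. Csf1r had 0.937 and 0.727 CPM in KO and 6.06 and 7.50 CPM in WT. In KO against WT at day 10, Cd68 was not called and Csf1r was called lower. The 5 hepatocyte and visceral endoderm markers summed to 0.0625 to 0.121 CPM in KO and 0.331 to 0.388 CPM in WT at day 10. The fibroblast markers summed to 2.45 to 9.20 CPM in KO and 14.0 to 44.7 CPM in WT at day 2. The part of these differences in the results was not tested. In bulk RNA, fewer cells of a type and less RNA per cell cannot be told apart.

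Promoters are shown for the members whose response to AA+2i differed between the genotypes and that have an entry in the promoter table of RefSeq (mouse build GRCm38.p6, not the mm9 build of the expression files). Each run is the 250 bases before the start, written along the coding strand. Capitals mark CCAAT, the letters read by the factor NF-Y (ATTGG where they lie on the other strand), and CACGTG, an E-box. Insig1 lies at chr5:28071162-28071411 on the plus strand, Cyp51 at chr5:4104698-4104947 on the minus strand, Sc4mol (Msmo1 in RefSeq) at chr8:64733579-64733828 on the minus strand and Acacb at chr5:114165268-114165517 on the plus strand.
Insig1: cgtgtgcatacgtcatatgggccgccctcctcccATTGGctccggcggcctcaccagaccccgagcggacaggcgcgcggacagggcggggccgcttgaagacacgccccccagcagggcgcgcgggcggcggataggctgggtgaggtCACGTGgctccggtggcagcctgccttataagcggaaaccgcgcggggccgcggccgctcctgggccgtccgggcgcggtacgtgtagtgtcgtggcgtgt
Cyp51: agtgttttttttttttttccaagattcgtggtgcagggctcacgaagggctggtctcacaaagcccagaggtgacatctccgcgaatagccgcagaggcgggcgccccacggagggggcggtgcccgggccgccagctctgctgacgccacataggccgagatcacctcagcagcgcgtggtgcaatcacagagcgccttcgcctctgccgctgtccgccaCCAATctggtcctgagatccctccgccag
Sc4mol: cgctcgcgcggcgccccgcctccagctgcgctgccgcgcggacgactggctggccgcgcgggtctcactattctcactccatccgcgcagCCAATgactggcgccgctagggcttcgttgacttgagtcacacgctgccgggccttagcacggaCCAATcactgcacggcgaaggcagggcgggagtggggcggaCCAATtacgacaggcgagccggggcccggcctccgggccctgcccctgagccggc
Acacb: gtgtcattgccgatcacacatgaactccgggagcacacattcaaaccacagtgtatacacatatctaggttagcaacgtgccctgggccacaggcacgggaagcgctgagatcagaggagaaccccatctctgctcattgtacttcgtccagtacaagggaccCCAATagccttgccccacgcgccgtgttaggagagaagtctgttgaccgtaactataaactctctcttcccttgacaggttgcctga

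The Insig1 promoter held 1 CACGTG and 1 CCAAT, that of Sc4mol held 3 CCAAT, and those of Cyp51 and Acacb held 1 CCAAT each. Over both strands, 27 members matched 36 promoters in the table (Fads1, Fdft1, Fdps, Scd1, Scd2, Sqle and Stard4 did not). CCAAT occurred in 16 of 23 sterol branch promoters (69.6%) and 7 of 13 fatty acid branch promoters (53.8%), against 33.8% of all 32851 promoters. By gene, 16 of 17 matched sterol genes had it in at least 1 promoter, Scap being the exception, against 6 of 10 fatty acid genes. GGGCGG, the GC box read by SP1, occurred in 78.3% of the sterol and 46.2% of the fatty acid promoters, against 32.7% of all promoters. CACGTG, whose letters read the same on both strands, was in 21.7% and 7.69% in that order, against 6.02% of all. TCACNCCAC, a spelling of the sterol response element, was in none of the 36, against 1.05% of all; its absence says only that these letters are not in these windows. None of these motifs contains another, and they can overlap only in part. A match is a description and not a binding site.

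Per transcript length, the highest member was Scd2, a stearoyl-CoA desaturase, with 459 and 1750 TPM (a unit scaled by transcript length) in KO A and B at day 0, against 499 and 1208 TPM in WT. The lowest was Acacb, the acetyl-CoA carboxylase of the mitochondrial surface, with 0.790 and 1.53 TPM in KO and 0.570 and 1.30 TPM in WT at day 0. In ESC the order differed. Fdps, which makes farnesyl diphosphate, had the highest level among members there with 329 TPM, while Scd2 had 130 TPM. Scd1 and Scd2 are close paralogs whose shared reads are divided by estimation, so their separate levels are uncertain.

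The members called in any comparison are first given by library, in CPM of the library total, with A before B. Mvd makes isopentenyl diphosphate, the isoprenoid unit. It had 19.3 and 14.0 CPM at day 0, 13.8 and 9.74 CPM at day 2 and 15.1 and 13.1 CPM at day 10 in KO. In WT it had 16.5 and 13.6 CPM at day 0, 17.2 and 13.1 CPM at day 2 and 28.8 and 29.4 CPM at day 10, against 85.2 CPM in ESC. The day 10 groups did not overlap, with KO low, while the earlier groups did.

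Fdft1, squalene synthase, commits farnesyl diphosphate to sterols. KO libraries had 115 and 117 CPM at day 0, 105 and 113 CPM at day 2 and 104 and 102 CPM at day 10. WT libraries had 74.9 and 59.0 CPM at day 0, 75.6 and 72.3 CPM at day 2 and 125 and 125 CPM at day 10, and ESC 178 CPM. KO lay above WT at days 0 and 2 and below it at day 10, with no overlap on any day.

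Sqle, squalene epoxidase, catalyses the next step. It had 69.7 and 91.2 CPM at day 0, 60.9 and 77.1 CPM at day 2 and 55.2 and 44.0 CPM at day 10 in KO. In WT it had 51.2 and 63.2 CPM at day 0, 42.8 and 52.6 CPM at day 2 and 85.1 and 102 CPM at day 10, against 157 CPM in ESC. KO lay above WT without overlap at days 0 and 2 and below it at day 10.

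Lss closes squalene epoxide into lanosterol. It had 45.9 and 63.2 CPM at day 0, 28.1 and 40.3 CPM at day 2 and 35.0 and 25.6 CPM at day 10 in KO. WT had 27.8 and 38.6 CPM at day 0, 25.7 and 31.8 CPM at day 2 and 34.4 and 34.7 CPM at day 10, and ESC 86.8 CPM. Only the day 0 groups did not overlap, with KO high.

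Cyp51, the lanosterol demethylase, had 159 and 256 CPM at day 0, 117 and 225 CPM at day 2 and 78.7 and 74.5 CPM at day 10 in KO. WT had 70.2 and 80.5 CPM at day 0, 57.4 and 79.9 CPM at day 2 and 95.6 and 90.8 CPM at day 10, against 118 CPM in ESC. Both KO libraries were above both WT libraries at days 0 and 2 and below them at day 10.

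Sc4mol, the sterol methyl oxidase, had 65.0 and 104 CPM at day 0, 37.5 and 81.1 CPM at day 2 and 24.1 and 22.9 CPM at day 10 in KO. WT had 32.7 and 34.3 CPM at day 0, 22.5 and 35.1 CPM at day 2 and 52.5 and 62.3 CPM at day 10, against 130 CPM in ESC. The order of the genotypes turned between day 2 and day 10 here too, with no overlap on any day.

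Ebp, a sterol isomerase, had 127 and 180 CPM at day 0, 90.6 and 178 CPM at day 2 and 92.7 and 91.7 CPM at day 10 in KO. WT had 139 and 143 CPM at day 0, 132 and 188 CPM at day 2 and 60.4 and 56.0 CPM at day 10, and ESC was lowest with 18.2 CPM. Day 10 was the only day on which the genotypes did not overlap, with KO high.

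Sc5d, a sterol desaturase, had 33.5 and 46.3 CPM at day 0, 27.4 and 44.8 CPM at day 2 and 22.6 and 23.6 CPM at day 10 in KO. WT had 21.6 and 26.1 CPM at day 0, 24.8 and 31.6 CPM at day 2 and 26.6 and 25.2 CPM at day 10, and ESC 27.4 CPM. KO stood above WT without overlap at day 0, overlapped it at day 2 and lay below it at day 10.

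Insig1, the retention protein for Scap, showed little spread between letters. It had 185 and 197 CPM at day 0, 94.2 and 97.7 CPM at day 2 and 84.6 and 101 CPM at day 10 in KO. WT had 77.6 and 78.2 CPM at day 0, 57.5 and 61.2 CPM at day 2 and 144 and 143 CPM at day 10, against 185 CPM in ESC. The day 0 level of KO was at the ESC level, and the genotypes did not overlap on any day.

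In the fatty acid branch, Acly, which makes cytosolic acetyl-CoA from citrate, had 281 and 230 CPM at day 0, 261 and 202 CPM at day 2 and 351 and 310 CPM at day 10 in KO. WT had 274 and 247 CPM at day 0, 304 and 245 CPM at day 2 and 477 and 491 CPM at day 10, and ESC 451 CPM. The genotypes overlapped at days 0 and 2, and WT was the higher at day 10.

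Acss2 makes acetyl-CoA from acetate. It had 31.8 and 26.1 CPM at day 0, 28.1 and 22.8 CPM at day 2 and 21.6 and 23.0 CPM at day 10 in KO. WT had 16.9 and 14.5 CPM at day 0, 22.1 and 20.2 CPM at day 2 and 19.0 and 17.9 CPM at day 10, and ESC 12.9 CPM. KO was the higher without overlap on each day.

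Acacb had 3.95 and 5.76 CPM at day 0, 3.45 and 7.07 CPM at day 2 and 6.81 and 7.02 CPM at day 10 in KO. WT had 2.80 and 4.84 CPM at day 0, 4.60 and 10.2 CPM at day 2 and 26.2 and 24.7 CPM at day 10, against 33.8 CPM in ESC. The day 10 WT libraries and ESC stood above all others.

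Fads2, a desaturase of polyunsaturated fatty acids, had 51.7 and 102 CPM at day 0, 52.1 and 93.0 CPM at day 2 and 37.3 and 29.9 CPM at day 10 in KO. WT had 47.7 and 64.4 CPM at day 0, 34.1 and 56.4 CPM at day 2 and 63.8 and 57.4 CPM at day 10, and ESC 41.3 CPM. The genotypes overlapped at days 0 and 2, and KO was below WT at day 10.

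**Figure D1:**
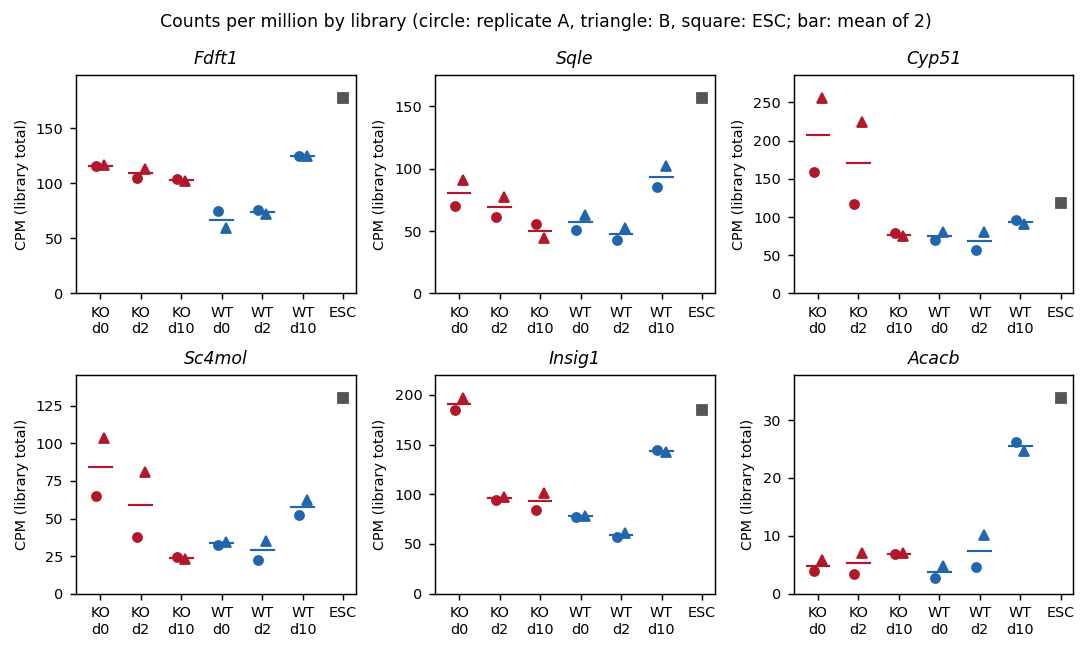
Level of 6 members in each of the 13 libraries, in CPM of the library total on linear axes from 0, with KO (red) left of WT (blue) and ESC (grey), circles for A, triangles for B and bars for the mean of the pair. In Insig1, KO has 185 and 197 CPM at day 0 and WT 144 and 143 CPM at day 10, and the order of the genotypes is opposite on those days.

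At day 0, sterol genes that passed the test were all higher in KO than in WT cells, led by Cyp51, Sc4mol and Insig1. Insig1 averaged 191 ± 8.10 CPM in KO and 77.9 ± 0.463 CPM in WT (SD, n = 2 each), a log2 fold change of 1.34 (SE 0.15, FDR 0.00101 by edgeR's quasi-likelihood test with Benjamini-Hochberg adjustment over 14324 genes). Cyp51 was higher by 1.50 on the log2 scale (SE 0.29, FDR 0.0137), Sc4mol by 1.37 (SE 0.33, FDR 0.0379) and Fdft1 by 0.84 (SE 0.18, FDR 0.0227). Acss2, with 0.93 (SE 0.22, FDR 0.0370), was the 1 fatty acid gene called. Markers of other cell states differed in the same comparison. The pluripotency marker Tdgf1 had 3.90 and 3.67 CPM in KO and 143 and 116 CPM in WT (-5.05, SE 0.33, FDR 9.99e-05), and Dppa5a had 0.494 and 0.248 CPM in KO and 13.5 and 9.86 CPM in WT (-4.89, SE 0.61, FDR 0.00168). The 6 pluripotency markers summed to 3803 to 8353 CPM in KO and 4087 to 7792 CPM in WT, most of it Pou5f1, and the fibroblast markers to 0.628 to 2.09 CPM in KO and 6.38 to 13.3 CPM in WT. Their part in the result was not tested.

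The call covered 4 of 21 sterol genes and 1 of 13 fatty acid genes, all higher, while 8.29% of all tested genes were called and 2.69% were called higher. The fitted change was positive in all 21 sterol genes, between 0.17 and 1.50, with a median of 0.54, and in 11 of 13 fatty acid genes, with a median of 0.35, beside a median of 0.004 over all tested genes. Within letters, 20 of 21 sterol genes were higher in KO in both A and B, and 8 of 13 fatty acid genes were. This agreement between letters was not counted over all tested genes, so it has no background share. With the letter as a block at days 0 and 2, 16 sterol genes and 4 fatty acid genes were called higher and none of the 34 lower, where 15% of all tested genes were called higher and 15.4% lower. The added sterol calls ran along the whole path and included Mvk (0.59), Idi1 (1.16), Lss (0.77), Sc5d (0.78), Dhcr7 (0.99) and Srebf2 (0.42), each in log2 units, and the added fatty acid calls were Elovl5 (0.54), Fads1 (0.84) and Fads2 (0.44). Without the block, the count of called members fell to 1 without WT B of day 0, to 2 without WT A, KO A or KO B of day 0 or WT B of day 10, and to 3 without WT A, KO A or KO B of day 10. A fit on the 4 day 0 libraries alone called 0 of the 34 and DESeq2 called 8, with no share of all genes given for either fit. The Insig1 call was kept in every other alternative.

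At day 2 the difference had the same sign in 17 of 21 sterol genes (median 0.37) and 10 of 13 fatty acid genes (median 0.34), beside a median of 0.02 over all genes. Cyp51 averaged 171 ± 76.1 CPM in KO and 68.7 ± 15.9 CPM in WT (SD, n = 2 each) and was higher by 1.38 (SE 0.29, FDR 0.0168). Insig1 averaged 96.0 ± 2.43 CPM in KO and 59.4 ± 2.64 CPM in WT and was higher by 0.77 (SE 0.15, FDR 0.0115). No fatty acid gene was called by the edgeR test, while 10.5% of all tested genes were called and 4.29% were called higher. At an unadjusted p under 0.05 there were 0 of 13 fatty acid genes, a count with no share of all genes beside it. With the letter block, 10 sterol genes were called higher and 0 lower, and 5 fatty acid genes higher and 1 lower, the last being the elongase Elovl6 (-0.47), where 18.8% of all genes were called higher and 17.8% lower. Both calls made without the block were lost without WT A or WT B of day 2 and in a fit on the 4 day 2 libraries alone, and that of Cyp51 also without KO B of day 2, while DESeq2 called 5 members.

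At day 10 the sterol genes called were lower in KO. Sc4mol averaged 23.5 ± 0.867 CPM in KO and 57.4 ± 6.98 CPM in WT (SD, n = 2 each), a log2 fold change of -1.24 (SE 0.33, FDR 0.0203). Mvd changed by -1.0 (SE 0.30, FDR 0.0325), Sqle by -0.87 (SE 0.19, FDR 0.00780) and Insig1 by -0.58 (SE 0.15, FDR 0.0155). Acacb averaged 6.92 ± 0.152 CPM in KO and 25.5 ± 1.08 CPM in WT and changed by -1.83 (SE 0.41, FDR 0.00898).

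These 4 of 21 sterol and 1 of 13 fatty acid genes stood beside 32.3% of all tested genes called and 19.9% called lower, so their share in that fit was at or under the background. The median change was -0.23 in the sterol branch, 0.09 in the fatty acid branch and -0.02 over all genes. Idi1 (0.87, SE 0.38), the desaturase gene Scd2 (0.84, SE 0.64) and Srebf1 (0.95, SE 0.62) had positive values that did not pass. With the letter block at days 0 and 2, which lowers the estimate of spread for all groups, 4 sterol genes were called higher (Mvk, Idi1, Ebp and Scap) and 9 lower, and 4 fatty acid genes higher and 5 lower, where 30.3% of all genes were called higher and 33.5% lower. Leaving out any 1 of the 4 day 10 libraries left 1 called member, whereas a fit on these 4 libraries alone called 23. Of these, 4 sterol genes were higher and 10 lower and 4 fatty acid genes higher and 5 lower, where 29.3% of the genes tested in that fit were called higher and 33% lower.

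**Figure D2:**
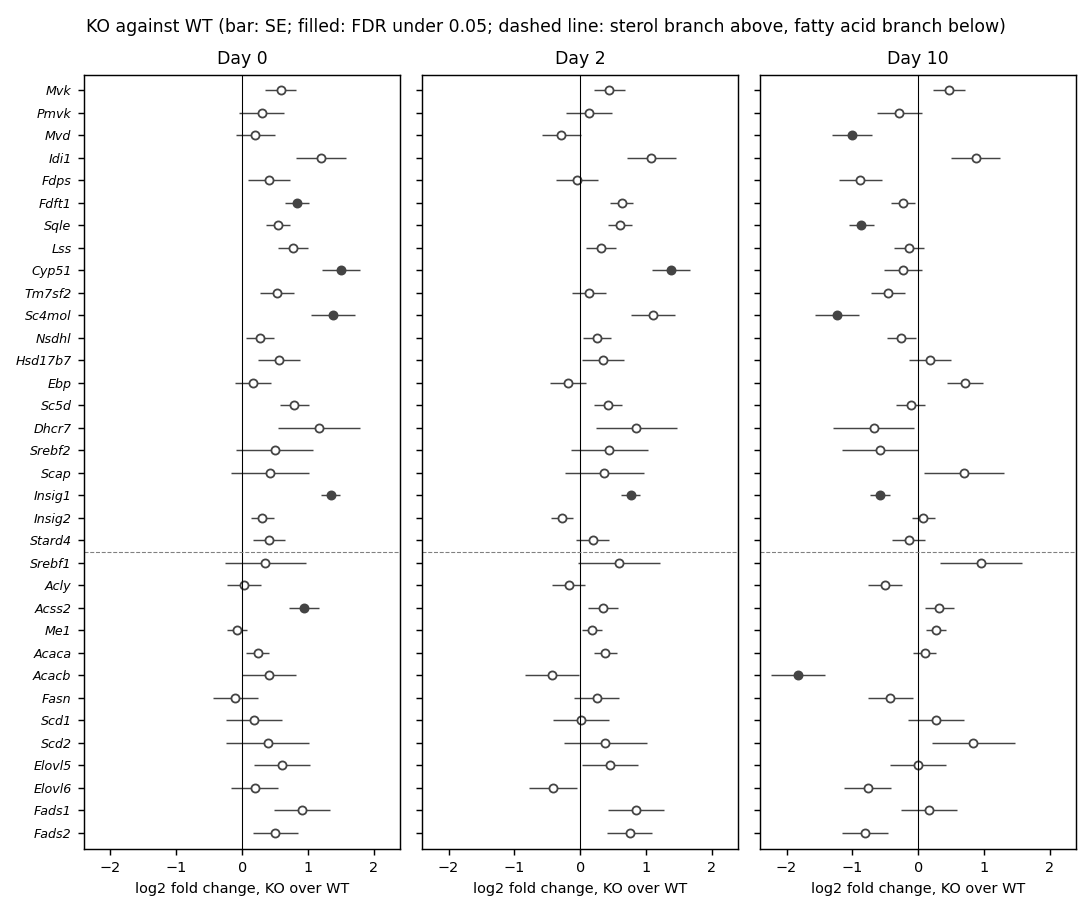
Fitted log2 fold change of KO over WT for each of the 34 members at days 0, 2 and 10, with bars of 1 SE, filled points for FDR under 0.05, and the sterol branch above the dashed line. All 21 sterol genes lie right of 0 at day 0, with a median of 0.54, and at day 10 the 4 called sterol genes lie left of it.

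Along the AA+2i course of KO cells, each sterol gene that passed the test was lower on the later day. Day 2 against day 0 gave negative values in all 21 sterol genes (median -0.30, all genes 0.01) and in 6 of 13 fatty acid genes (median 0.05). Insig1 was called, with 96.0 ± 2.43 CPM at day 2 and 191 ± 8.10 CPM at day 0 in KO (SD, n = 2 each), a log2 fold change of -1.01 (SE 0.15, FDR 0.00491), beside 6.39% of all genes called and 2.37% called lower. Within letters 18 of 21 sterol genes were lower at day 2 in both A and B, and 5 of 13 fatty acid genes were. The share of all tested genes lower in both letters was not counted. In the blocked fit 9 sterol genes were lower and 0 higher, including Fdps (-0.89), Lss (-0.69), Srebf2 (-0.52) and Mvd (-0.51), and in the fatty acid branch Acaca was lower (-0.45) and Srebf1 higher (0.50), where 13.3% of all genes were called lower and 16.2% higher. The Insig1 call was kept in each alternative except the fit on the KO libraries of days 0 and 2 alone.

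In KO at day 10 against day 0, 6 sterol genes were lower. Sc4mol averaged 23.5 ± 0.867 CPM at day 10 and 84.4 ± 27.4 CPM at day 0 (-1.89, SE 0.34, FDR 0.00648), and Cyp51 76.6 ± 2.99 CPM and 207 ± 68.7 CPM in the same order (-1.49, SE 0.29, FDR 0.00965). Insig1 (-1.10, SE 0.15, FDR 0.00173), Lss (-0.90, SE 0.23, FDR 0.0287), Sc5d (-0.84, SE 0.22, FDR 0.0322) and Sqle (-0.75, SE 0.19, FDR 0.0281) were lower too. In the fatty acid branch Fads2 was lower (-1.24, SE 0.35, FDR 0.0442).

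All 21 sterol genes had negative values (median -0.75), as had 10 of 13 fatty acid genes (median -0.45), beside a median of -0.01 over all genes, of which 15.1% were called and 5.19% were called lower. With the letter block 16 sterol genes were lower and 0 higher, and 7 fatty acid genes lower and 2 higher (Acly and Acacb), where 23% of all genes were called lower and 24.8% higher. Without the block, the count of 7 called members fell to 1 without KO A or KO B of day 10, to 2 without KO B of day 0, to 3 without WT A of day 0, WT B of day 0, WT B of day 2 or WT A of day 10, and to 4 without WT A of day 2 or WT B of day 10. Scaling by library totals alone and a fit on the KO libraries of days 0 and 10 alone gave 3 each, no filter gave 4, and only the Insig1 call held in all 19 alternatives. In KO at day 10 against day 2, 0 members were called by edgeR, where 3.1% of all genes were. At an unadjusted p under 0.05 there were 7 members, a count with no share of all genes beside it and no result about the members. DESeq2 called 3. The letter block called 9 sterol genes lower, 6 fatty acid genes lower and 1 higher, where 18.3% of all genes were called lower and 18.9% higher.

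In WT at day 2 against day 0, 0 members were called by edgeR, where 5.3% of all genes were. At an unadjusted p under 0.05 there were 3 members, with no share of all genes beside them, and DESeq2 called 2. In the blocked fit 3 sterol genes were lower (Fdps, Srebf2 and Insig1) and 0 higher, and 4 fatty acid genes were higher and 3 lower, where 15.6% of all genes were called higher and 14.6% lower.

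At day 10 against day 0, WT cells had more Insig1, with 144 ± 1.36 CPM at day 10 and 77.9 ± 0.463 CPM at day 0 (SD, n = 2 each; 0.82, SE 0.15, FDR 0.00285). Fdft1 (0.83, SE 0.18, FDR 0.00717), Sqle (0.66, SE 0.19, FDR 0.0246) and Mvd (0.89, SE 0.30, FDR 0.0485) were higher too, and Ebp was lower, with 58.2 ± 3.10 CPM and 141 ± 2.64 CPM in the same order (-1.34, SE 0.28, FDR 0.00613). In the fatty acid branch Acacb was higher, with 25.5 ± 1.08 CPM at day 10 and 3.82 ± 1.45 CPM at day 0 (2.70, SE 0.42, FDR 0.00144), as was Acly (0.83, SE 0.26, FDR 0.0344). The called sterol genes were 4 higher and 1 lower of 21, and the called fatty acid genes 2 higher of 13, beside 34.1% of all genes called, 21% higher and 13.1% lower, so these shares were at or under the background. Medians were 0.13 in the sterol branch, -0.29 in the fatty acid branch and -0.03 over all genes.

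Under the letter block, 7 sterol genes were higher and 2 lower, and 4 fatty acid genes higher and 6 lower, the last including Scd1 (-0.38), Scd2 (-1.21) and Srebf1 (-1.15), where 34.4% of all genes were called higher and 31.3% lower. Without the block, the 7 calls fell to 3 without WT B of day 10 and to 4 without WT A of day 0, WT B of day 0 or WT A of day 10, and those of Insig1, Fdft1 and Acacb held in all 19 alternatives. Against day 2, the same 7 members were called in the same directions in WT at day 10, where 29.5% of all genes were called, 18.3% higher and 11.2% lower. Insig1 was higher by 1.25 (SE 0.15, FDR 0.000522), Sqle by 0.95 (SE 0.19, FDR 0.00563) and Acacb by 1.78 (SE 0.41, FDR 0.0110), and Ebp changed by -1.47 (SE 0.28, FDR 0.00481). Fdft1 (0.73), Acly (0.79) and Mvd (0.91) had FDRs of 0.0154, 0.0474 and 0.0495. This count fell to 2 without WT A of day 2, to 3 without WT A or WT B of day 10 and to 4 without WT B of day 2, and was 11 in a fit on the WT libraries of days 2 and 10 alone. In the blocked fit 9 sterol genes were higher and 2 lower and 6 fatty acid genes higher and 5 lower, where 32.9% of all genes were called higher and 29.8% lower.

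**Figure D3:**
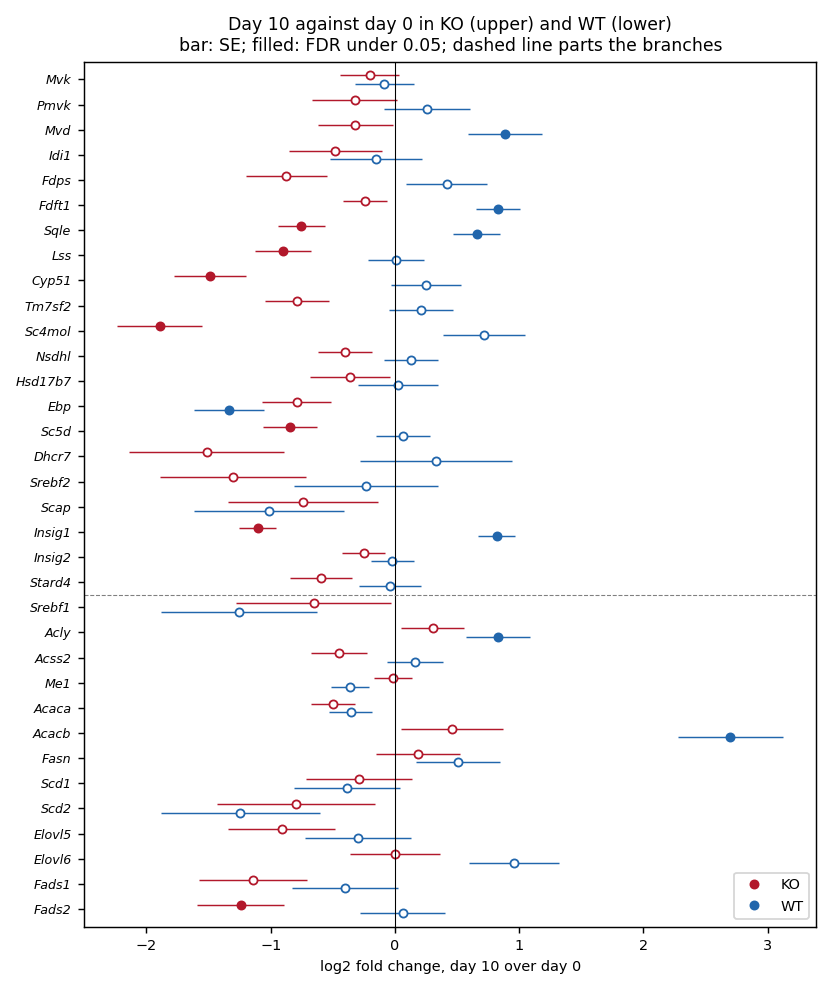
Fitted log2 fold change of day 10 over day 0 for each member in KO (red, upper) and WT (blue, lower), with bars of 1 SE and filled points for FDR under 0.05. All 21 sterol genes of KO lie left of 0, and Insig1 has filled points on both sides, -1.10 in KO and 0.82 in WT.

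The difference between the genotypes in the day 10 response was tested as an interaction, the change in KO minus the change in WT. It was negative in Sc4mol (-2.61, SE 0.47, FDR 0.00831), Insig1 (-1.92, SE 0.21, FDR 0.000927), Cyp51 (-1.74, SE 0.40, FDR 0.0247), Sqle (-1.41, SE 0.27, FDR 0.00992) and Fdft1 (-1.07, SE 0.25, FDR 0.0266). In the fatty acid branch it was negative in Acacb (-2.24, SE 0.58, FDR 0.0367). In Acacb the day 10 change passed the test in WT and not in KO. In Insig1 and Sqle the change passed in both genotypes, with opposite signs.

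The interaction was called lower in 5 of 21 sterol and 1 of 13 fatty acid genes, where 12.6% of all tested genes were called and 6.2% called lower. It was negative in 19 of 21 sterol genes (median -0.91) and 9 of 13 fatty acid genes (median -0.53), beside a median of 0.01 over all genes. With the letter block 13 sterol genes were lower and 1 higher (Ebp, 0.57), and 6 fatty acid genes lower and 1 higher (Srebf1, 0.67), where 20.7% of all genes were called lower and 23.9% higher. Without the block, the count fell to 1 without KO B of day 10, to 2 without KO B of day 0 and to 3 without KO A of day 10 or any 1 of the 4 WT libraries of days 0 and 10. The Insig1 call held in all 19 alternatives, and DESeq2 called 11 members. The interaction with day 2 was called in 0 members by edgeR, where 0.195% of all genes were. At an unadjusted p under 0.05 there were 2 members, with no share of all genes beside them, and DESeq2 called 1. The letter block called 4, all lower (Insig1, Insig2, Acss2 and Elovl6), where 2.91% of all genes were called lower and 4.83% higher.

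The 21 members not called in any comparison of the fit over all 12 pre-iPSC libraries without the block had levels and differences of many sizes. Dhcr7, the reductase of the last step, ran between 30.0 and 141 CPM in KO and between 26.8 and 60.0 CPM in WT, and its highest values were 141 and 114 CPM in KO B of days 0 and 2, against 42.5 and 35.7 CPM in KO A. Srebf2 ran between 177 and 708 CPM in KO and between 170 and 485 CPM in WT, and Scap between 63.7 and 201 CPM in KO and between 50.2 and 146 CPM in WT. In both the B libraries were the higher at days 0 and 2 in each genotype. Idi1, the isopentenyl isomerase, ran the other way, with 261 and 158 CPM in KO A and B and 106 and 83.8 CPM in WT A and B at day 0, and KO was above WT without overlap on each day. In KO against WT at day 0 the SEs of these 4 genes ran between 0.38 and 0.62 on the log2 scale.

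In the fatty acid branch Scd2 ran between 1478 and 5817 CPM in KO and between 949 and 4242 CPM in WT, and B had more than A at days 0 and 2 throughout. Scd1 ran between 363 and 1004 CPM in KO and between 381 and 969 CPM in WT, and Fads1, the partner desaturase of Fads2, between 132 and 404 CPM in KO and between 121 and 208 CPM in WT. Fasn, the fatty acid synthase itself, had 369 and 252 CPM in KO and 430 and 429 CPM in WT at day 10, a log2 change of -0.42 with a 95% interval of -1.20 to 0.35, which did not pass. Acaca, the cytosolic carboxylase that supplies it, had 102 and 93.5 CPM in KO and 91.4 and 98.2 CPM in WT at day 10 and overlapped. Me1, a source of NADPH, ran between 63.3 and 80.4 CPM in KO and between 59.3 and 87.8 CPM in WT.

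**Figure D4:**
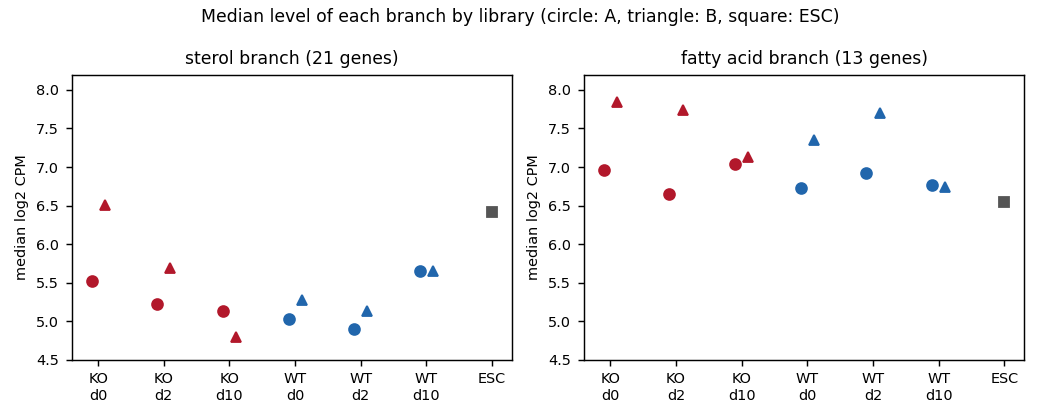
Median over the genes of each branch of log2 CPM (with 0.5 added to each count) in each library, with KO (red) left of WT (blue) and ESC (grey), circles for A and triangles for B. The sterol medians of KO are 5.52 and 6.51 at day 0 and 5.13 and 4.79 at day 10, and those of WT are 5.03 and 5.27 at day 0 and 5.65 and 5.65 at day 10, while the fatty acid medians differ more between letters than between genotypes at days 0 and 2.

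By library, the sterol median was 5.52 and 6.51 log2 CPM in KO A and B and 5.03 and 5.27 in WT A and B at day 0. At day 10 it was 5.13 and 4.79 in KO and 5.65 and 5.65 in WT. The genotypes did not overlap on either day, and their order was opposite. The fatty acid median was 6.95 and 7.84 log2 CPM in KO and 6.73 and 7.35 in WT at day 0, and 7.04 and 7.13 in KO and 6.76 and 6.74 in WT at day 10, so both KO libraries were above both WT libraries at day 10 and above the WT library of the same letter at day 0. At day 2 it was 6.65 and 7.74 in KO A and B and 6.92 and 7.70 in WT A and B, so KO was the lower in A and the higher in B, while the sterol median was 5.23 and 5.68 in KO and 4.90 and 5.14 in WT. ESC had 6.41 in the sterol branch and 6.55 in the fatty acid branch.

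The single ESC library allows values and no test. Its mean transcript length was 2891 bases, against 3325 to 3437 bases at day 10, and the part of this gap in the ratios was not tested. The median log2 ratio of the sterol branch to ESC was -0.78 in KO and -0.51 in WT at day 10, and 0.04 in KO and -0.83 in WT at day 0. Both KO day 10 libraries were at least 2-fold below ESC in 7 of 21 sterol genes (Mvd, Fdps, Sqle, Lss, Tm7sf2, Sc4mol and Dhcr7) and 2-fold above it in 2 (Ebp and Scap), where 17.5% of all tested genes were lower and 19.5% higher by that rule. For WT day 10 the counts were 3 lower (Mvd, Lss and Sc4mol) and 1 higher (Ebp), where 6.93% of all genes were lower and 18.6% higher. Mvd, the sterol gene with the lowest ratio in both, was at -2.60 in KO and -1.55 in WT.

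The fatty acid branch had medians of 0.07 in KO and 0.51 in WT against ESC at day 10. At least 2-fold higher were Srebf1, Scd1 and Scd2 in KO (3 of 13) and Scd1 and Scd2 in WT (2 of 13), and Acacb was lower in KO (1 of 13) by -2.28. At day 0 the sterol counts were 1 lower and 1 higher in KO, where 19.2% of all genes were lower and 14.9% higher, and 8 lower and 1 higher in WT, where 17% were lower and 15.2% higher. The fatty acid counts at day 0 were 5 higher and 1 lower in KO and 2 higher and 1 lower in WT.

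**Figure D5:**
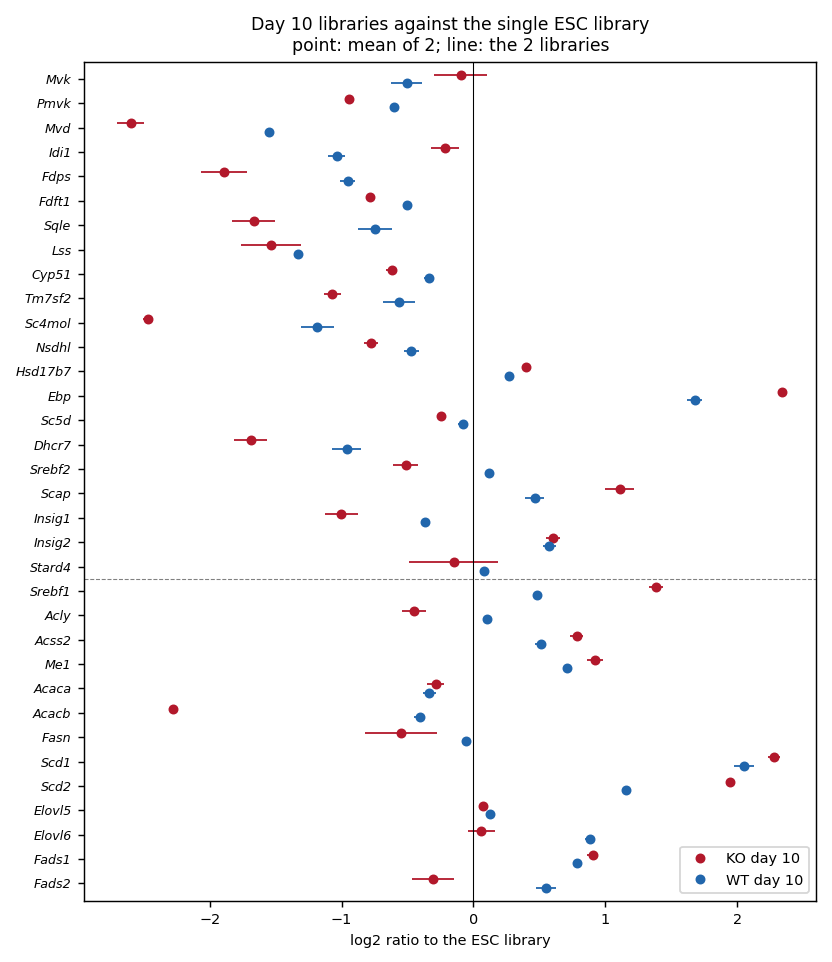
Log2 ratio of the day 10 libraries to the single ESC library for each member, with KO (red) above WT (blue), points for the mean of 2 libraries and lines joining them, and the sterol branch above the dashed line. Mvd is at -2.60 in KO and -1.55 in WT, and Scd1 is at 2.28 in KO and 2.06 in WT.

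Genes around these pathways were counted from 6 lists. In KO against WT at day 10, fatty acid oxidation had 4 higher and 3 lower of 17 tested, other elongases, desaturases and acyl-CoA synthetases 2 higher and 4 lower of 17, SREBP processing and lipogenic regulators 3 higher and 3 lower of 15, sterol uptake, export and storage 0 higher and 3 lower of 16, glycerolipid synthesis and storage 0 higher and 3 lower of 17, and isoprenoid side branches 1 higher and 1 lower of 10. These shares stand beside 32.3% of all genes called in either direction and 19.9% called lower. Cpt1a, which admits fatty acids to mitochondria, had 36.1 and 37.7 CPM in KO and 229 and 208 CPM in WT at day 10 (-2.52, SE 0.29, FDR 0.000420). Abcg1, a sterol exporter, had 2.50 and 2.30 CPM in KO and 22.0 and 19.4 CPM in WT (-3.06, SE 0.42, FDR 0.000902), and Acsl5, an acyl-CoA synthetase, had 107 and 99.4 CPM in KO and 32.7 and 34.9 CPM in WT (1.66, SE 0.15, FDR 0.000163). All 3 calls held in all 19 alternatives, and the groups did not overlap. Abca1, another sterol exporter of the same list as Abcg1, ran the other way and was not called. It had 266 and 272 CPM in KO and 93.4 and 83.1 CPM in WT at day 10.

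At day 0 the same lists held 1 higher and 1 lower of 17 in fatty acid oxidation and 2 higher and 1 lower of 15 in SREBP processing. There were 1 higher of 17 in elongases, desaturases and synthetases, 1 higher of 16 in sterol uptake and 1 higher of 10 in isoprenoid side branches. Glycerolipid synthesis had 1 lower of 17. Of all genes, 8.29% were called in either direction and 2.69% called higher at day 0. Vldlr, a lipoprotein receptor, had 14.8 and 29.8 CPM in KO and 2.72 and 3.86 CPM in WT (2.81, SE 0.44, FDR 0.00558), with no overlap. Without WT A of day 0, and in a fit on the day 0 libraries alone, the Vldlr call was lost. At day 2 it had 36.0 and 85.7 CPM in KO and 3.34 and 5.60 CPM in WT (3.82, SE 0.46, FDR 0.00128), a call lost in the fit on the day 2 libraries alone. The day 10 interaction was called in 2 higher and 2 lower of 17 oxidation genes, 1 higher and 3 lower of 17 elongase, desaturase and acyl-CoA synthetase genes, 1 higher and 2 lower of 15 SREBP processing genes, and 0 of the sterol uptake, glycerolipid and isoprenoid lists, which had 3, 0 and 0 genes at an unadjusted p under 0.05. Over all tested genes 12.6% were called in either direction and 6.2% lower, and the share at an unadjusted p under 0.05 was not counted.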

How the data were processed

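Expected counts and TPM per gene were deposited by the authors, made with Bowtie2, RSEM and build mm9 per the submitters' processing notes, which name no version here. RSEM divides shared reads, so counts are estimates. Expected counts were rounded (35.0% to 43.8% of genes per library had values that were not whole within 0.005) and tested with edgeR 4.0.16 (R 4.3.3): TMM factors (0.922 to 1.06), filterByExpr, and quasi-likelihood tests in 1 fit over 6 groups of pre-iPSC libraries with Benjamini-Hochberg adjustment over all 14324 genes tested, which include all 34 members. FDR under 0.05 counted as called; the common biological coefficient of variation was 0.266 on 6 residual degrees of freedom. The procedure was tested on simulated data for KO against WT at day 10 only. Those data had the same biological coefficient of variation in every gene and no gap between letters, so they do not cover the gap seen at days 0 and 2. CPM are expected counts scaled to a library total of 1000000, which ranged between 14891294 and 26430050; TPM were used only to compare genes. Alternatives were RLE factors, library totals alone, no filter, DESeq2 1.42.0, the libraries compared alone, the letter as a block, and each library left out. Letters pair the libraries of days 0 and 2, from the correlations in the report, and not day 10. Members called anywhere are given by library, the others by range. Of each neighbouring list up to 3 genes of lowest FDR with a mean of at least 1 CPM could be named. Abca1 was named beside Abcg1 outside that rule. The members and lists were chosen with earlier results of these data known.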

Additional observations from a re-analysis of the deposited data

Results flagged for a closer look

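Among the members, 6 differed between the genotypes in their day 10 against day 0 change, by the interaction term of edgeR's quasi-likelihood test with Benjamini-Hochberg adjustment. The values, KO minus WT in log2 units, were -2.61 in Sc4mol, -1.92 in Insig1, -1.74 in Cyp51, -1.41 in Sqle and -1.07 in Fdft1 of the sterol branch, and -2.24 in Acacb of the fatty acid branch. Without KO B of day 10 the Sc4mol call was lost, and the Acacb call held in 4 of 12 fits that left out a library. Several fibroblast and pluripotency markers differed between KO and WT at day 10. Pou5f1, with a positive log2 change of 1.15, Col3a1 and Pdgfra were not called there, and Lum was not among the tested genes. The part of the fibroblast and pluripotency markers in these 6 results was not tested.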

How the results depend on the processing

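No called value of a member or named neighbouring gene changed sign under any alternative. Counts of called members are given as KO against WT at days 0, 2 and 10, day 2 against day 0, day 10 against day 0 and day 10 against day 2 in KO, the same 3 in WT, and the interactions with days 2 and 10. As reported they were 5, 2, 5, 1, 7, 0, 0, 7, 7, 0 and 6. Where an alternative has no share of all genes called in this report, its counts show dependence on the processing and are no result about the members. With DESeq2 the counts that moved by over 1.5 times were 8 and 5 for KO against WT at days 0 and 2, 2 and 3 for day 2 against day 0 and day 10 against day 2 in KO, 2 for day 2 against day 0 in WT, and 1 and 11 for the interactions. In fits on the libraries compared alone they were 0, 0 and 23 for KO against WT, 0 and 3 for days 2 and 10 against day 0 in KO, and 11 for day 10 against day 2 in WT. Day 10 against day 0 in KO gave 3 with library totals alone and 4 with no filter. With the letter as a replicate block over all days they were 8, 6 and 11 for KO against WT, 2, 13 and 2 in KO, 1 for day 2 against day 0 and 11 for day 10 against day 2 in WT, and 10 for the day 10 interaction. With the replicate block at days 0 and 2 only, where the letters pair the libraries, all 11 counts were higher, namely 20, 16, 22, 11, 25, 16, 10, 19, 22, 4 and 21, since the block takes up the difference between letters. Leaving out 1 library gave 1 to 7, 0 to 3 and 1 to 7 for KO against WT at days 0, 2 and 10, 1 to 1, 1 to 8 and 0 to 2 in KO, 0 to 0, 3 to 8 and 2 to 9 in WT, and 0 to 0 and 1 to 6 for the interactions. There the lone library of a group is assumed to vary like the other groups. With 2 libraries a group, the gap between letters at days 0 and 2 is part of the spread in the fit without the block. The day 10 cultures alone were split, on day 4. This and any other difference in handling from the earlier libraries cannot be told apart from treatment time.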

Other observations

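Ebp stood apart from the other sterol enzymes. Against ESC it was 2.34 higher on the log2 scale in KO and 1.68 higher in WT at day 10, while the median over the sterol branch was -0.78 in KO and -0.51 in WT. It was chosen after its values were seen.

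The letters B and A of days 0 and 2 differed by more than the genotypes in several members. Scd2 had 4206 CPM in B and 1478 CPM in A of KO at day 0, and 2886 CPM in B and 1577 CPM in A of WT. Srebf1 had 463 CPM in B and 155 CPM in A of KO, and 351 CPM in B and 150 CPM in A of WT. At day 10 Scd2 had 1683 and 1666 CPM in KO and 949 and 988 CPM in WT. The cause was not tested.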
